A study of Mus musculus with 48 samples.

Results

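Newly made RNA was compared between Smarce1-MD (here MD) and Smarce1-MD(R42A) (here R42A) mouse embryonic stem cells 90 min after release from mitosis. SMARCE1 is a subunit of the SWI/SNF (BAF) complex, which uses ATP to move nucleosomes and open chromatin. MD cells carry it in a form made to be degraded during mitosis, and the R42A form of the same construct serves as the control. All cells were of strain 129S5/SvEvBrd, grown with serum and LIF, arrested in mitosis with the microtubule inhibitor nocodazole, shaken off, washed free of the drug and cultured on. Their nascent transcripts were pulse-labelled with 5-ethynyluridine (EU), a uridine analogue that can be captured after incorporation. The 8 libraries taken at 90 min were chosen from the 48 of the series by their time label. They were 2 libraries, numbered replicate 1 and replicate 2, of each of the MD clones MD09 and MD30 and of each of the R42A clones A04 and A10. Each clone is a single line, so the genotype is represented by 2 clones.

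Transcription largely stops when chromosomes condense in mitosis and restarts in waves as cells enter G1, with housekeeping genes and genes of cell identity resuming at different times. Some chromatin regulators and transcription factors stay on mitotic chromosomes and are thought to mark genes for this restart. Embryonic stem cells pass through a very short G1 phase, in which they are also most responsive to differentiation cues. The comparison asked how the nascent transcriptome during this restart differed after SMARCE1 had been removed in mitosis.

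The MD libraries were shallower than the R42A libraries, and the replicate 1 libraries of both MD clones stood apart. Counts assigned to features totalled 630119 to 1518400 in MD and 2653313 to 3149721 in R42A libraries. Log CPM (counts scaled to the TMM-adjusted library total) of the MD libraries with the same replicate number but different clones correlated at r = 0.941 and 0.942. For the 2 libraries of one MD clone r was 0.824 and 0.822, and among R42A libraries it was 0.969 to 0.981. Replicate 1 of MD correlated with R42A libraries at 0.775 to 0.792 and replicate 2 of MD at 0.858 to 0.887. In a principal component analysis of all 48 libraries, the MD replicate 1 libraries lay at PC1 -54.4 and -49.98, beside MD libraries taken at 0 min (-57.0 to -48.8). MD replicate 2 libraries lay at -31.5 and -25.5, and R42A libraries at -11.6 to -6.91.

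**Figure D1:**
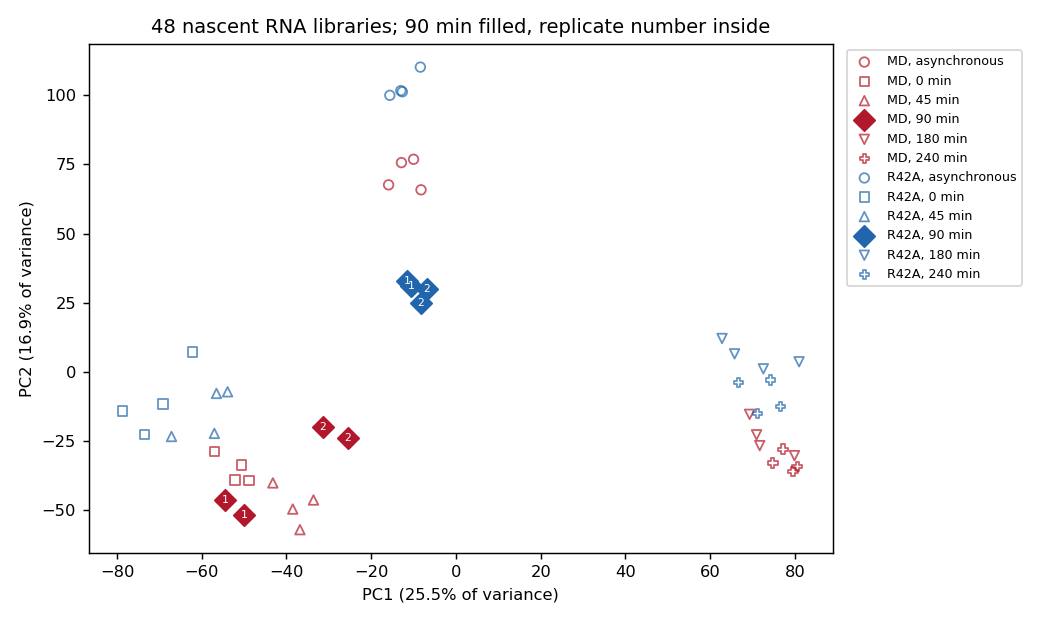
Principal components 1 and 2 of log CPM in all 48 libraries, MD in red and R42A in blue, with the 90 min libraries as filled diamonds that carry their replicate number. The MD replicate 1 libraries lie next to the MD libraries of 0 and 45 min, the MD replicate 2 libraries lie between them and the R42A 90 min libraries, and all MD 90 min libraries lie below the R42A libraries of that time on PC2.

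The feature CT010467.2 (chromosome 17, 39811786 to 39812022, an unprocessed pseudogene) and the mitochondrially encoded features took a large share of the MD09 libraries. CT010467.2 held 4.05 and 11.3% of the counts of the MD09 libraries, 0.0949 and 0.104% of those of MD30, and 0.0204 to 0.0242% of those of R42A libraries. Mitochondrially encoded features held 4.31 and 2.22% in MD09, 0.567 and 0.529% in MD30, and 0.183 to 0.217% in R42A libraries. Values below are those credited to a feature, which may hold RNA of an overlapping gene, because the sources used here do not give the strand setting of the counting. In these bulk libraries fewer cells that transcribe a gene and less RNA per cell cannot be told apart.

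The libraries showed expression of stem cell genes. Zfp42 (Rex1) stood at 50.8 to 77.0 CPM in MD and 43.2 to 58.4 CPM in R42A libraries, and Pou5f1 (Oct4) at 18.1 to 39.4 CPM in MD and 24.5 to 36.6 CPM in R42A libraries. Sox2 was listed at 0 in all 8 libraries, and 0% of its exonic bases lie outside another gene's span. Summed levels of 12 mesoderm markers were 80.8 to 105 CPM in MD and 156 to 175 CPM in R42A libraries, with T at 0 in all 8. Tbx6 made up most of that sum in R42A, and without it the sum was 73.2, 32.3, 76.8 and 38.1 CPM in MD, against 38.3, 36.2, 38.5 and 35.7 CPM in R42A, so that the MD replicate 1 libraries were above the R42A libraries and those of MD replicate 2 were below and among them. Those of 13 endoderm markers were 82.0 to 105 CPM in MD and 51.5 to 74.5 CPM in R42A libraries, and without the largest member, Lama1, 59.7 to 79.8 CPM in MD and 36.9 to 53.5 CPM in R42A libraries. Sums without a largest member were added after seeing the data. Other lists overlapped between the genotypes. The sum over 14 fibroblast markers was 17.1 to 27.9 CPM in MD and 18.2 to 24.5 CPM in R42A, with Lum and S100a4 at 0 in all 8. The sum over 12 neural markers was 24.9 to 39.4 CPM in MD and 19.1 to 33.2 CPM in R42A, with Sox1, Neurog1 and Tubb3 at 0. The sum over 12 trophoblast markers was 75.6 to 118 CPM in MD and 92.5 to 115 CPM in R42A. The sum over 18 markers of cells like the early embryo before compaction (two-cell-like cells) was 4.75 to 11.1 CPM in MD and 5.08 to 7.74 CPM in R42A, with Zscan4b, Zfp352, Tcstv1, Tcstv3 and Gm4340 at 0.

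Smarce1 itself (chromosome 11, 99209047 to 99231017) stood at 33.3, 35.03, 23.6 and 31.8 CPM in MD, against 32.7, 30.5, 33.7 and 33.2 CPM in R42A, so the groups overlapped (log2 fold change -0.05 ± 0.17, adjusted p = 0.862). Its construct was designed to act on the protein, and the RNA level does not check the degradation.

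Between 2 MD and 2 R42A clone sums, in which both libraries of a clone were added, 19647 features had enough counts to be tested. Of these 3870 were higher in MD (19.7%) and 4251 lower (21.6%), 41.3% together, by edgeR's quasi-likelihood test at an adjusted p of 0.05, and "higher", "lower" and "called" below refer to this test. By more than 1 log2 unit 2394 were higher and 2573 lower. With the replicate 2 libraries alone 2523 of 15934 were higher (15.8%) and 2934 lower (18.4%), 34.2% in all. With the replicate 1 libraries alone 3853 of 15817 were higher (24.4%) and 4568 lower (28.9%), 53.2% in all.

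The 2 replicate numbers shared part of these differences. Over the 14913 features tested with each number, the log2 fold changes of replicate 1 and replicate 2 correlated across features at r = 0.42, a description over features that share libraries. Features called the same way in the clone sums and in each number alone made up 18.3%, with 1083 higher (7.26%) and 1646 lower (11%). A further 261 were higher in replicate 1 and lower in replicate 2, and 189 were lower in replicate 1 and higher in replicate 2. All 4 MD libraries lay above all 4 R42A libraries for 2540 features (12.9%) and below them for 3570 (18.2%).

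The differences between replicate numbers were themselves large in MD. Between the replicate 1 and replicate 2 libraries of MD 43.8% of 17442 features differed, 3512 higher and 4133 lower in replicate 1, whereas between those of R42A 6.07% differed. The genotype difference itself changed with the replicate number at 6773 features (38.8%). When the replicate number was taken as the replicate and the 2 clones of a genotype were summed, edgeR called 0 of 18847 features (0%), with 3876 at an unadjusted p under 0.05 and a lowest adjusted p of 0.0545. P-values from clone sums therefore measure the spread between clones and do not contain the spread between numbers. The sources do not say whether the 2 libraries of a clone were separate cultures. The number of calls was 3295 without MD09 replicate 1, 4286 without MD09 replicate 2 and 4809 without MD30 replicate 1, against 8121 with all libraries. The test shares its spread between the genotypes. That spread (common coefficient of variation between clones) was 0.16 with all clones, 0.25 without A04 or A10, and 0.045 without MD09 or MD30. Counts below without clone A04 or A10 therefore rest on the larger spread of the MD clones alone. Over all features, too, fewer were called in those fits than with all clones. A smaller count of a list there does not by itself set the list apart. Counts without MD09 or MD30, which rest on the R42A clones, are not given for the lists.

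**Figure D2:**
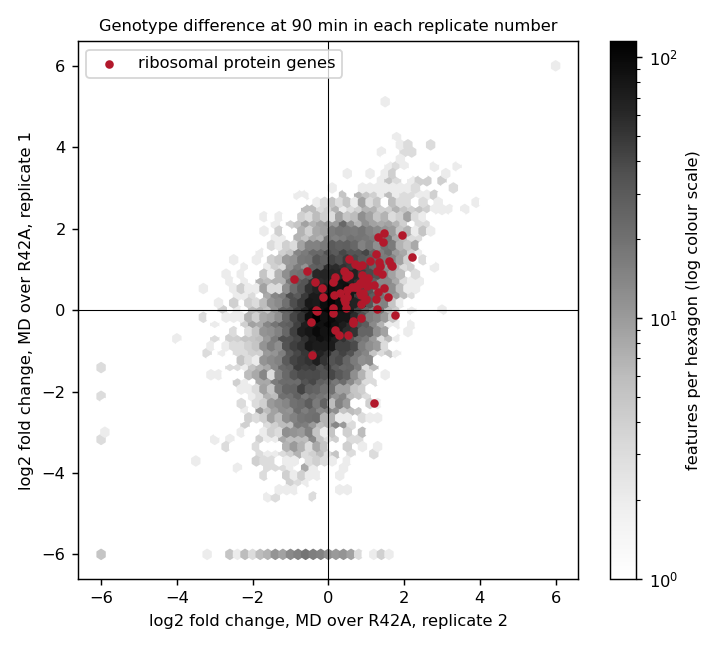
Log2 fold change of MD over R42A from the replicate 2 libraries (horizontal) and the replicate 1 libraries (vertical) for 14913 features, shown as density, with ribosomal protein genes in red. Values beyond 6 in size are drawn at 6. Most ribosomal protein genes lie right of and above 0, while many other features lie far below 0 in replicate 1 with values near 0 in replicate 2.

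Part of the genotype difference followed chromosomes in every condition. Over the 1482 features of chromosome 11 the median log2 fold change of MD over R42A at 90 min was 0.41, and 528 were higher and 124 lower. Over the 1025 features of chromosome 8 it was -0.35, with 111 higher and 357 lower. In a fit of all 24 clone sums the medians of chromosome 11 were 0.42 in asynchronous cells and then 0.51, 0.47, 0.29, 0.499 and 0.496 in time order from 0 to 240 min. Those of chromosome 8 were -0.49 in asynchronous cells and -0.37, -0.396, -0.47, -0.42 and -0.41 at the same times. The other autosomes lay between -0.13 and -0.01 in asynchronous cells and between -0.36 and -0.04 at 90 min, with chromosome 6 lowest, against a median of -0.13 over all features in that fit at 90 min. The part of these shifts in the fold change of single genes on those chromosomes was not tested. Below, the chromosome is given for some genes only, and a gene named without it may lie on chromosome 8 or 11. Smarce1 lies on chromosome 11. Without the features of both chromosomes 3304 of 17140 features were higher and 3591 lower.

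**Figure D3:**
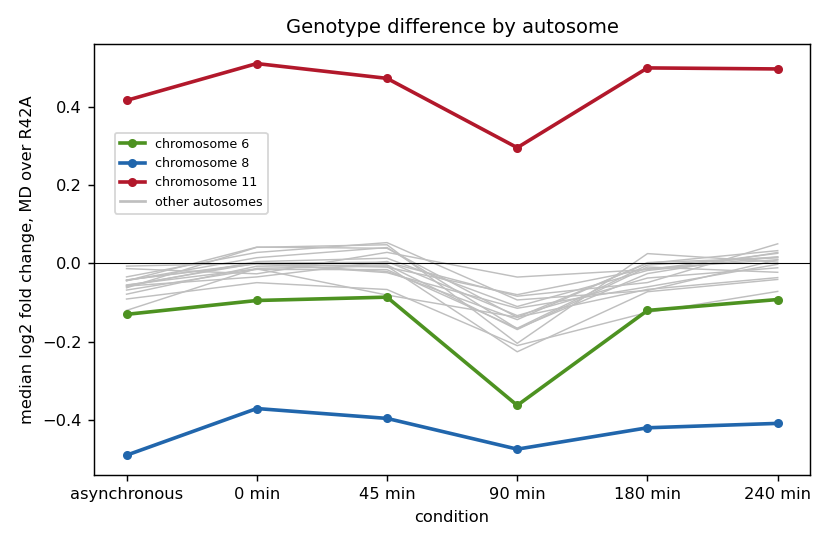
Median log2 fold change of MD over R42A for each autosome in asynchronous cells and at each time after release, from a fit of all 24 clone sums. Chromosome 11 (red) stays near 0.5 or 0.4 except for 0.29 at 90 min, chromosome 8 (blue) stays near -0.4, and chromosome 6 (green) is at -0.36 at 90 min.

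The features with the largest changes were chosen by size and level from 852 higher and 918 lower ones. These were also called in replicate 2 alone and had all MD libraries on one side of all R42A libraries. For features named by this rule, separate groups and a call in replicate 2 were thus required and are no further result. Values of 4 libraries are given in the order MD09 replicate 1 and 2, MD30 replicate 1 and 2, or A04 replicate 1 and 2, A10 replicate 1 and 2.

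Rsad2, which encodes the interferon-induced antiviral protein viperin, stood at 18.1, 28.6, 7.38 and 13.97 CPM in MD, against 2.11, 0.897, 2.23 and 2.14 CPM in R42A. The groups did not overlap, and replicate 2 alone gave the larger fold change (log2 fold change 3.296 ± 0.41, adjusted p = 0.000403, and 3.89 ± 0.48, adjusted p = 0.000672 in replicate 2 alone). The vomeronasal receptor gene Vmn2r32 stood at 9.504, 22.1, 13.3 and 17.8 CPM in MD, against 2.11, 1.495, 1.59 and 1.07 CPM in R42A (log2 fold change 3.31 ± 0.305, adjusted p = 5.69e-05). Skint7, a member of a family that selects T cells of the skin, had 27.6, 58.1, 14.8 and 20.3 CPM in MD, against 3.17, 2.69, 5.09 and 3.93 CPM in R42A (log2 fold change 3.09 ± 0.51, adjusted p = 0.00866). Nsg2, a gene of neuronal vesicle traffic on chromosome 11, had 24.7, 20.3, 14.8 and 13.97 CPM in MD, against 2.11, 2.39, 1.91 and 1.43 CPM in R42A (log2 fold change 3.24 ± 0.32, adjusted p = 7.17e-05). In these 4 genes no MD library was below any R42A library, and the counts behind the R42A values were 3 to 16 per library.

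Rasgrf1, a guanine nucleotide exchange factor for Ras, showed 22.8, 11.98, 14.8 and 12.7 CPM in MD, against 1.41, 2.09, 1.59 and 2.499 CPM in R42A (log2 fold change 3.03 ± 0.301, adjusted p = 7.29e-05). Aknad1 showed 41.8, 17.5, 14.8 and 16.5 CPM in MD, against 3.52, 2.69, 2.54 and 3.57 CPM in R42A (log2 fold change 2.93 ± 0.32, adjusted p = 0.000156). MD09 replicate 1 was the highest library for both. Cd22, a sialic acid-binding receptor of B cells, stood at 953, 209, 669 and 192 CPM in MD, against 49.95, 52.9, 41.03 and 56.4 CPM in R42A (log2 fold change 3.31 ± 0.25, adjusted p = 3.10e-05). Its 2 replicate 1 libraries of MD were several-fold above the replicate 2 libraries of MD. The secreted lipid-binding family gene Bpifb4 showed the same order, with 55.1, 7.37, 53.2 and 10.2 CPM in MD, against 2.11, 3.59, 0.954 and 2.14 CPM in R42A (log2 fold change 3.76 ± 0.27, adjusted p = 2.84e-05, and 1.54 ± 0.45, adjusted p = 0.0231 in replicate 2 alone).

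Among the higher features with the highest levels, Katnal2, a katanin-like microtubule-severing gene, stood at 10436, 3390.3, 3794 and 1767 CPM in MD, against 1253, 1204, 1211 and 1333 CPM in R42A (log2 fold change 1.94 ± 0.48, adjusted p = 0.00893). Smim1, which encodes a small membrane protein of red cells, stood at 3586, 1299, 889 and 492 CPM in MD, against 297, 243, 279.6 and 279.9 CPM in R42A (log2 fold change 2.502 ± 0.63, adjusted p = 0.0277). The mitochondrial gene mt-Cytb, a subunit of respiratory complex III, stood at 1673, 1189, 647 and 500.4 CPM in MD, against 265, 222, 266 and 254 CPM in R42A (log2 fold change 1.99 ± 0.42, adjusted p = 0.00738). All 3 were highest in MD09 replicate 1, the library with the largest mitochondrial share, and lowest among MD libraries in MD30 replicate 2, and the part of that share in them was not tested. The phospholipid flippase gene Atp9a ranged over 411 to 2156 CPM in MD and 288 to 317 CPM in R42A, and Fstl4, a follistatin-like gene, over 464 to 1366 CPM in MD and 278 to 307 CPM in R42A. Hydin, a gene of the axoneme of motile cilia on chromosome 8, ranged over 488 to 1417 CPM in MD and 184 to 260.2 CPM in R42A. The log2 fold changes of Atp9a, Fstl4 and Hydin were 1.79 ± 0.32, 1.502 ± 0.26 and 2.01 ± 0.26, with adjusted p of 0.00167, 0.00115 and 0.000269, and in all 3 the replicate 1 libraries of MD were the higher ones.

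Among the lower features, Phf2os1, an antisense transcript of Phf2, had 0 counts in all 4 MD libraries, against 31, 42, 41 and 38 counts in the R42A libraries. Against 3 counts over the MD group this was at least 15.04-fold lower in MD (adjusted p = 0.000108), a bound that covers counting error only. Wdsub1, which encodes a protein with WD repeats and a U-box, had 0, 1, 0 and 1 counts in MD libraries, against 39, 40, 38 and 23 in R42A libraries. The level was 20.8-fold lower in MD, with a 95% counting interval of 5.65 to 173 (adjusted p = 0.000166).

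Pip, which encodes the prolactin-induced protein of secretory glands, stood at 0.9504, 1.84, 1.48 and 1.27 CPM in MD, against 28.1, 29.6, 43.3 and 32.8 CPM in R42A (log2 fold change -4.57 ± 0.36, adjusted p = 3.72e-05). Mras, a gene of a Ras-related GTPase that acts on ERK signalling, stood at 2.85, 1.84, 4.43 and 6.35 CPM in MD, against 67.5, 84.6, 65.5 and 102 CPM in R42A (log2 fold change -4.44 ± 0.27, adjusted p = 2.39e-05). Both groups were far apart in either replicate number, with -4.84 in replicate 1 and -4.21 in replicate 2 for Pip and -4.195 in replicate 1 and -4.59 in replicate 2 for Mras. Acadl, the long-chain acyl-CoA dehydrogenase of mitochondrial fatty acid oxidation, stood at 0.9504, 0, 5.91 and 0 CPM in MD, against 21.1, 13.5, 15.6 and 14.6 CPM in R42A (log2 fold change -3.498 ± 0.45, adjusted p = 0.000238). Its 2 replicate 2 libraries of MD were at 0.

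Tmed6, a cargo receptor gene of the early secretory pathway on chromosome 8, ranged over 0.922 to 2.54 CPM in MD and 19.1 to 28.5 CPM in R42A, and Trcg1 over 0.922 to 2.54 CPM in MD and 12.7 to 19.99 CPM in R42A. Mboat4, the enzyme that acylates ghrelin, ranged over 0 to 1.84 CPM in MD and 9.27 to 14.4 CPM in R42A. Their log2 fold changes were -4.07 ± 0.35, -3.58 ± 0.38 and -3.41 ± 0.41 (adjusted p from 4.60e-05 to 0.000176), with 0 to 2 counts in every MD library.

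Among the lower features with the highest levels was Esrrb (chromosome 12, 86361117 to 86521628), an orphan nuclear receptor of naive pluripotency that is known to stay on mitotic chromosomes. It stood at 402, 328, 332 and 301 CPM in MD, against 651, 790.3, 632 and 772 CPM in R42A. The highest MD library was below the lowest R42A library (log2 fold change -1.07 ± 0.25, adjusted p = 0.00597, and -1.29 ± 0.202, adjusted p = 0.00159 in replicate 2 alone). Eaf2, an associated factor of the ELL elongation proteins, stood at 208, 343, 189 and 301 CPM in MD, against 461, 607, 568 and 619 CPM in R42A (log2 fold change -1.11 ± 0.23, adjusted p = 0.00371). Nfe2l3, a CNC-family transcription factor gene, stood at 163, 296, 134 and 258 CPM in MD, against 509, 552, 542 and 570.1 CPM in R42A (log2 fold change -1.33 ± 0.23, adjusted p = 0.0012).

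Cab39l, a scaffold of the kinase LKB1, ranged over 242 to 329 CPM in MD and 553 to 636 CPM in R42A (log2 fold change -1.02 ± 0.24, adjusted p = 0.00593). Arfgef3 ranged over 253 to 336 CPM in MD and 579 to 686 CPM in R42A (log2 fold change -1.198 ± 0.24, adjusted p = 0.00274) and Megf11 over 259.9 to 353 CPM in MD and 420.2 to 517 CPM in R42A (log2 fold change -0.61 ± 0.22, adjusted p = 0.047). In each of these 6 genes all MD libraries lay below all R42A libraries, as the rule required.

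**Figure D4:**
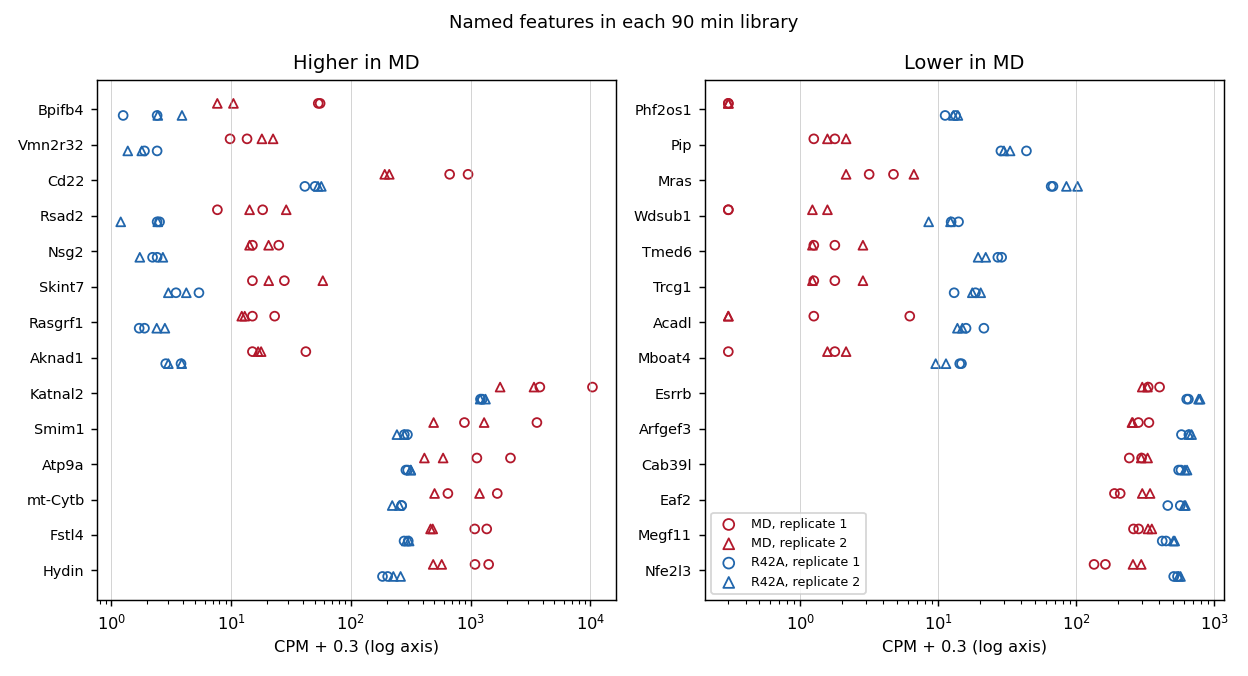
CPM plus 0.3, on a log axis, of the features named by size and level in each of the 8 libraries, with MD in red above R42A in blue, circles for replicate 1 and triangles for replicate 2. By the rule of choice all MD libraries lie to the right of all R42A libraries in the left panel and to the left in the right panel. In Cd22, Bpifb4, Atp9a, Fstl4 and Hydin the MD circles lie right of the MD triangles.

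Of the features that met this rule, 792 of the 852 higher ones and 908 of the 918 lower ones were also called in the fit of all 24 sums. In that fit 304 of the higher and 328 of the lower ones were called the same way at 45 min, 250 and 345 at 180 min, 216 and 175 at 240 min, 137 and 83 at 0 min, and 175 and 382 in asynchronous cells. In these other conditions 3 to 15 of the higher and 0 to 10 of the lower ones were called the opposite way. These counts come from the fit that shares its spread over all conditions, and they describe features chosen at 90 min. Those at 90 min come from the libraries that chose the features. The shares of all features called in the other conditions are not given, so the counts cannot be set against them.

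Ribosomal protein genes, which build the translation machinery, were higher in MD wherever they were called in the sums. Of 76 ribosomal protein genes tested, of 81 in the list, 43 were higher and 0 lower in MD (56.6% higher, against 19.7% of all features), with a median log2 fold change of 0.64 against -0.01 over all features. In replicate 2 alone 39 were higher and 0 lower of 73, and in replicate 1 alone 34 were higher and 2 lower of 75. Their median was 0.83 in replicate 2 and 0.603 in replicate 1, and 22 were higher in the sums and in each number. All 4 MD libraries were above all 4 R42A libraries for 32 of the 76 and below them for 1. Without clone A04 17 were higher, without clone A10 23, and with DESeq2 19, with 0 lower in each. Over all features DESeq2 called 2124 higher and 1879 lower of 19647. With replicate numbers as the replicate 0 ribosomal protein genes were called, as were 0 of all features.

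Summed over the large subunit, ribosomal protein genes had 1643, 1522, 1335 and 1308 CPM in MD, against 987, 759, 955 and 784 CPM in R42A. Over the small subunit they had 1522, 1369.8, 1223 and 1205 CPM in MD, against 1049, 891, 999 and 967 CPM in R42A. Every MD library was above every R42A library in both sums. In the R42A clones replicate 1 was above replicate 2, so that the replicate numbers differed in the control too. On chromosome 11 6 of 7 ribosomal protein genes were higher, and on the other chromosomes 37 of 69, with medians of 1.21 and 0.61.

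Rpl38 (chromosome 11), a large subunit protein, stood at 65.6, 47.01, 64.98 and 40.6 CPM in MD, against 19.7, 12.9, 17.8 and 9.99 CPM in R42A (log2 fold change 1.84 ± 0.16, adjusted p = 4.99e-05). Rpl27a, on chromosome 7, stood at 48.5, 84.8, 54.6 and 59.7 CPM in MD, against 20.1, 17.04, 22.3 and 14.99 CPM in R42A (log2 fold change 1.74 ± 0.16, adjusted p = 5.60e-05). Rps26, of the small subunit and on chromosome 10, stood at 68.4, 85.7, 66.5 and 66.04 CPM in MD, against 32.4, 24.8, 31.8 and 23.9 CPM in R42A (log2 fold change 1.35 ± 0.15, adjusted p = 0.00013). In all 3 the groups were separated by a wide gap. Rpl26 and Rpl19, both on chromosome 11, ranged over 46.99 to 119 CPM in MD and 18.6 to 30.6 CPM in R42A, and over 35.6 to 74.1 CPM in MD and 16.5 to 23.9 CPM in R42A. Fau and Rps15 had log2 fold changes of 1.12 ± 0.17 (adjusted p = 0.000666) and 0.95 ± 0.16 (adjusted p = 0.000935).

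The genotype difference of ribosomal protein genes varied with time. In the fit of all 24 sums their median log2 fold change of MD over R42A was -0.35 at 0 min, -0.103 at 45 min, 0.51 at 90 min, 0.21 at 180 min and -0.05 at 240 min, and 0.08 in asynchronous cells, against -0.13 over all features at 90 min. The genotype difference at 90 min exceeded that at 45 min for 15 of 45 large subunit and 13 of 33 small subunit genes. It exceeded that at 180 min for 6 of 45 and 4 of 33, with 0 in the other direction in either comparison. Over all 23874 features 1523 went upward and 3131 downward against 45 min, and 1838 and 2934 against 180 min.

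The starts of the ribosomal protein genes named above are shown because such genes are known for a pyrimidine tract at the first bases of the transcript. Each sequence (RefSeq, GRCm38.p6, transcript strand) runs from 60 bases before the start to 20 bases from it, and the capitals mark the letters CTTTC.
Rpl38 (chr11:114668520-114668599, + strand): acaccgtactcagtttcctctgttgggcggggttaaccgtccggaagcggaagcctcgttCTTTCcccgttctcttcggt
Rpl27a (chr7:109519135-109519214, + strand): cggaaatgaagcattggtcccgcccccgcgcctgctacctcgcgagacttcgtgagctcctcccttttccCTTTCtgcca
Rpl26 (chr11:68901506-68901585, + strand): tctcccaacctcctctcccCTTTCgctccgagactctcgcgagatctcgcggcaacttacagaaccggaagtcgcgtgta
Rpl19 (chr11:98026650-98026729, + strand): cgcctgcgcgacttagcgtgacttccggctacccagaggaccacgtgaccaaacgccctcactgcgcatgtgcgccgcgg
Rps26 (chr10:128626487-128626566, - strand): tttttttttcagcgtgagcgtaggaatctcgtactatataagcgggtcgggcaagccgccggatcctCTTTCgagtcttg
Fau (chr19:6057887-6057966, + strand): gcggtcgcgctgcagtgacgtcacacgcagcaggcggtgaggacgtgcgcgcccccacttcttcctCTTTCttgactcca
Rps15 (chr10:80292371-80292450, + strand): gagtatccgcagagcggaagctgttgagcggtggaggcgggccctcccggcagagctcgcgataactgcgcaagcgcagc
The motif CTTTC was searched in the 15 bases before and 15 bases from the start, on the transcript strand, and as GAAAG for the other strand. The RefSeq table held 60 of the ribosomal protein genes. CTTTC was found in 16 of the 60 (26.7%), against 3.97% of all 27025 promoters, and GAAAG in 5% against 3.43%. Among ribosomal protein genes called higher in MD 6 of 32 held CTTTC, and among those tested but not called 8 of 24. In the sequences shown it lies in that window in Rpl38, Rpl27a, Rps26 and Fau, and further upstream, outside the window, in Rpl26. These matches describe the letters only.

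Other genes of protein synthesis were called in both directions. Shares of the lists below stand against 19.7% higher and 21.6% lower over all features in the fit with all libraries. These 2 shares are no measure for the counts without clone A04 or A10, where fewer features were called in all. Of translation factors 3 were higher (8.11%) and 4 lower (10.8%) of 37 tested (median 0.02), and in replicate 2 alone 5 higher and 1 lower of 36 (median 0.31). The translation factor counts were 3 higher and 6 lower of 36 in replicate 1 alone, 2 and 3 without clone A04, and 2 and 3 without clone A10. The elongation factor gene Eef1d was higher (65.4 to 105 CPM in MD and 34.1 to 46.4 CPM in R42A; log2 fold change 1.16 ± 0.15, adjusted p = 0.000221). Eef1g, of the same complex, was higher as well (36.9 to 57.97 CPM in MD and 19.1 to 32.01 CPM in R42A; log2 fold change 0.903 ± 0.15, adjusted p = 0.00119). Eif4e, the cap-binding protein, was lower (1.27 to 8.86 CPM in MD and 12.9 to 13.99 CPM in R42A, log2 fold change -1.57 ± 0.28, adjusted p = 0.00155), as was Eif2s2 (log2 fold change -0.94 ± 0.17, adjusted p = 0.00173), 0% of whose exonic bases lie outside another gene. Of nucleolar and RNA polymerase I genes 6 were higher (15%) and 6 lower (15%) of 40 tested, with 11 higher and 4 lower of 37 in replicate 2 alone. The RNA helicase gene Ddx21 (log2 fold change 0.78 ± 0.17, adjusted p = 0.00385) and the snoRNP protein gene Nhp2 (log2 fold change 0.71 ± 0.16, adjusted p = 0.00451) were higher. Polr1c, a subunit of RNA polymerases I and III (log2 fold change -1.03 ± 0.16, adjusted p = 0.000589), and the nucleolar GTPase gene Gnl3 (log2 fold change -1.48 ± 0.24, adjusted p = 0.000906) were lower. The nucleolar counts were 5 higher and 12 lower of 39 in replicate 1 alone, 1 and 3 without clone A04, and 0 and 4 without clone A10.

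Of snoRNA host genes, whose introns carry small nucleolar RNAs, 0 were higher (0%) and 4 lower (28.6%) of 14 tested, but in replicate 2 alone 0 higher and 0 lower of 9, with medians of -0.64 and 0.400. Snhg14 stood at 182, 345, 168 and 281 CPM in MD, against 387, 423, 555 and 438 CPM in R42A (log2 fold change -0.88 ± 0.23, adjusted p = 0.0118). Snhg20 stood at 4.75, 16.6, 5.91 and 13.97 CPM in MD, against 16.5, 18.2, 19.1 and 20.7 CPM in R42A (log2 fold change -0.82 ± 0.22, adjusted p = 0.0134). The low values were those of the MD replicate 1 libraries. The snoRNA host counts were 0 higher and 8 lower of 10 in replicate 1 alone, 0 and 1 without clone A04, and 0 and 0 without clone A10. Proteasome subunits gave 7 higher and 7 lower of 31, and in replicate 2 alone 7 and 1. The regulatory particle gene Psmd12 on chromosome 11 was higher (48.3 to 61.8 CPM in MD and 16.8 to 23.3 CPM in R42A, log2 fold change 1.38 ± 0.16, adjusted p = 0.000155). Psmd11 was higher in the sums (log2 fold change 0.88 ± 0.17, adjusted p = 0.00204) but turned to -0.66 in replicate 1 alone. The core particle gene Psma7 was lower (log2 fold change -0.74 ± 0.19, adjusted p = 0.0107), as was Psma1, at 0, 0.922, 0 and 1.27 CPM in MD, against 4.22, 3.59, 5.41 and 1.78 CPM in R42A (adjusted p = 0.00606), where MD held a few counts in all. The proteasome counts were 3 higher and 7 lower of 29 in replicate 1 alone, 3 and 3 without clone A04, and 3 and 2 without clone A10. Chaperonin and heat shock genes gave 3 higher and 4 lower of 21. Hspa4 (log2 fold change 0.79 ± 0.17, adjusted p = 0.00422) and Cct4 (log2 fold change 0.79 ± 0.18, adjusted p = 0.00582), both on chromosome 11, were higher. The mitochondrial chaperone gene Hspa9 (log2 fold change -0.77 ± 0.18, adjusted p = 0.00682) and the heat shock factor gene Hsf1 (log2 fold change -0.66 ± 0.18, adjusted p = 0.0133) were lower. The chaperone counts were 2 higher and 3 lower of 20 in replicate 1 alone, 0 and 1 without clone A04, and 1 and 0 without clone A10.

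Of mitochondrially encoded features 5 were higher (27.8%) and 0 lower (0%) of 18 tested (median 1.06), in replicate 2 alone 5 higher and 0 lower of 16 and in replicate 1 alone 5 higher and 3 lower of 15. In the fit of all 24 sums 11 were higher and 2 lower of 19 at 90 min. The ribosomal RNA genes differed between the replicate numbers: against the R42A mean, log2(CPM + 1) of mt-Rnr1 was -1.51 in MD09 and -1.68 in MD30 in replicate 1, and 0.85 and 0.23 in replicate 2. That of mt-Rnr2 was -2.23 and -2.63 in replicate 1, and 0.702 and -0.04 in replicate 2. All MD libraries were above all R42A libraries for 9. Besides mt-Cytb the complex I gene mt-Nd1 was among those called (223, 548, 177 and 289.6 CPM in MD, against 192, 159, 200.4 and 176 CPM in R42A; log2 fold change 0.79 ± 0.25, adjusted p = 0.0276), with overlapping groups. The complex IV gene mt-Co1 was higher (267 to 772 CPM in MD and 181 to 224 CPM in R42A; log2 fold change 1.15 ± 0.36, adjusted p = 0.036). The alanine tRNA gene mt-Ta was higher too (17.7 to 49.4 CPM in MD and 7.74 to 9.86 CPM in R42A; log2 fold change 2.02 ± 0.51, adjusted p = 0.042). Summed over the list the level was 62244, 26938, 5277 and 4275 CPM in MD, against 2022, 1723, 2055 and 1989 CPM in R42A. Much of it in MD was mt-Nd5, and without that gene it was 15581, 9714, 2908 and 2630.3 CPM in MD, against 1444, 1224, 1509 and 1390.4 CPM in R42A, with all MD libraries still above all R42A libraries. The number called was 0 without clone A04 and 2 without A10.

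Of nuclear-encoded respiratory chain genes 6 were higher (8.82%) and 17 lower (25%) of 68 tested, and in replicate 2 alone 8 higher and 10 lower of 47. The complex I gene Ndufb10 was lower (5.702, 26.7, 7.38 and 26.7 CPM in MD, against 65.1, 57.7, 55.7 and 62.8 CPM in R42A; log2 fold change -1.82 ± 0.17, adjusted p = 5.99e-05). Ndufb7, of the same complex and on chromosome 8, was lower too (10.3 to 33.02 CPM in MD and 44.6 to 65.1 CPM in R42A; log2 fold change -1.36 ± 0.16, adjusted p = 0.000171). The ATP synthase gene Atp5g3 (22.2 to 52.1 CPM in MD and 12.6 to 16.5 CPM in R42A; log2 fold change 1.297 ± 0.17, adjusted p = 0.000281) and the complex III gene Uqcrc1 (log2 fold change 1.07 ± 0.21, adjusted p = 0.00259) were higher. The respiratory chain counts were 2 higher and 17 lower of 56 in replicate 1 alone, 3 and 11 without clone A04, and 2 and 11 without clone A10. Of glycolysis genes 0 were higher (0%) and 1 lower (5.26%) of 19 tested, the lower one being Pgk1 (0 to 2.54 CPM in MD and 12.3 to 16.1 CPM in R42A; log2 fold change -2.98 ± 0.37, adjusted p = 0.000198), and in replicate 2 alone 1 higher and 3 lower of 18.

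Of pluripotency genes, Esrrb among the lower and Nanog among the higher ones, 6 were higher (18.2%) and 9 lower (27.3%) of 33 tested, against 19.7 and 21.6% of all features (median -0.198), and in replicate 2 alone 6 higher and 6 lower of 32 (median 0.14). Klf5, a Krüppel-like factor of self-renewal, stood at 6.65, 5.53, 4.43 and 7.62 CPM in MD, against 22.9, 26.02, 20.4 and 20.7 CPM in R42A (log2 fold change -1.88 ± 0.25, adjusted p = 0.000301). Tbx3, a T-box factor of the naive state, stood at 10.5, 8.296, 14.8 and 10.2 CPM in MD, against 27.8, 31.7, 23.2 and 30.7 CPM in R42A (log2 fold change -1.42 ± 0.22, adjusted p = 0.000636). In both genes the highest MD library was under the lowest R42A library. Sall1 (chromosome 8) ranged over 22.2 to 26.7 CPM in MD and 44.5 to 56.2 CPM in R42A (log2 fold change -1.02 ± 0.17, adjusted p = 0.000979). The dioxygenase gene Tet2 ranged over 44.5 to 61.8 CPM in MD and 82.5 to 88.3 CPM in R42A (log2 fold change -0.71 ± 0.15, adjusted p = 0.00419).

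Nanog, a homeobox factor of pluripotency, stood at 19.96, 23.04, 22.2 and 17.8 CPM in MD, against 13.4, 9.87, 12.4 and 13.6 CPM in R42A (log2 fold change 0.77 ± 0.201, adjusted p = 0.0115). Dnmt3l, a cofactor of DNA methyltransferases, stood at 29.5, 24.9, 28.1 and 40.6 CPM in MD, against 13.4, 17.6, 18.4 and 13.9 CPM in R42A (log2 fold change 0.93 ± 0.19, adjusted p = 0.0031). Neither gene's groups overlapped. Lin28a, which blocks let-7 processing, was higher in the sums (log2 fold change 0.95 ± 0.17, adjusted p = 0.00163), with 1.204 in replicate 1 and 0.598 in replicate 2. Dppa2, a small SAP-domain chromatin factor, was higher (log2 fold change 0.78 ± 0.23, adjusted p = 0.019). The pluripotency counts were 5 higher and 16 lower of 32 in replicate 1 alone, 1 and 5 without clone A04, and 2 and 6 without clone A10. Summed over the list the level was 1375, 1268, 1341 and 1278 CPM in MD, against 1801, 1886, 1717 and 1767 CPM in R42A. Every MD library was below every R42A library in that sum, but without Esrrb it was 973, 940.2, 1009 and 977 CPM in MD, against 1150.3, 1096, 1085 and 995 CPM in R42A, where the groups overlapped.

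Of genes of formative and primed pluripotency, which rise as stem cells leave the naive state, 7 were higher (43.8%) and 2 lower (12.5%) of 16 tested (median 0.74), and in replicate 2 alone 6 higher and 1 lower of 12 (median 0.78). Lef1, a transcription factor of Wnt signalling, stood at 25.7, 25.8, 31.02 and 19.1 CPM in MD, against 9.15, 9.87, 10.8 and 8.21 CPM in R42A (log2 fold change 1.397 ± 0.19, adjusted p = 0.000357). Grhl2, which drives the epithelial programme, stood at 30.4, 46.1, 35.4 and 52.1 CPM in MD, against 18.996, 18.2, 13.99 and 16.4 CPM in R42A (log2 fold change 1.28 ± 0.18, adjusted p = 0.000385). All MD libraries were above all R42A libraries for both. Tcf15, a bHLH factor, was higher (72.8 to 158 CPM in MD and 44.9 to 78.8 CPM in R42A; log2 fold change 0.91 ± 0.18, adjusted p = 0.00267). The Wnt ligand gene Wnt8a was higher as well (0.922 to 9.504 CPM in MD and 0.352 to 1.27 CPM in R42A; log2 fold change 2.47 ± 0.47, adjusted p = 0.00212). The forkhead gene Foxd3 was lower (0 to 4.61 CPM in MD and 6.58 to 11.1 CPM in R42A; log2 fold change -1.86 ± 0.37, adjusted p = 0.00256). The FGF target Etv4 was lower too (35.4 to 44.2 CPM in MD and 53.8 to 66.1 CPM in R42A; log2 fold change -0.54 ± 0.16, adjusted p = 0.0213). The counts were 4 higher and 2 lower of 12 in replicate 1 alone, 6 and 1 without clone A04, and 3 and 1 without clone A10.

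Of FGF-ERK feedback genes 2 were higher (16.7%) and 6 lower (50%) of 12 tested, against 19.7 and 21.6% of all features, and 2 and 5 in replicate 2 alone. Dusp5, a nuclear phosphatase of ERK, stood at 76.03, 29.5, 45.8 and 35.6 CPM in MD, against 6.33, 8.67, 10.5 and 9.28 CPM in R42A (log2 fold change 2.42 ± 0.21, adjusted p = 4.57e-05). The ERK pathway inhibitor Spred2 (chromosome 11) ranged over 169 to 213 CPM in MD and 103 to 133 CPM in R42A (log2 fold change 0.65 ± 0.17, adjusted p = 0.0121). The inhibitor Spry4 stood at 3.801, 9.22, 1.48 and 15.2 CPM in MD, against 22.9, 28.4, 20.4 and 22.1 CPM in R42A (log2 fold change -1.64 ± 0.25, adjusted p = 0.000639). Dusp4 (log2 fold change -1.47 ± 0.41, adjusted p = 0.0149) and Dusp6 (log2 fold change -1.94 ± 0.59, adjusted p = 0.0217), phosphatases of ERK, were lower. Dusp4 ranged over 0 to 7.62 CPM in MD and 6.36 to 10.9 CPM in R42A and Dusp6 over 0 to 2.54 CPM in MD and 2.499 to 5.68 CPM in R42A, and in both the groups overlapped. The counts were 2 higher and 4 lower of 10 in replicate 1 alone, 1 and 2 without clone A04, and 1 and 3 without clone A10.

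Of Wnt, Nodal and BMP target genes 10 were higher (50%) and 2 lower (10%) of 20 tested, but in replicate 2 alone 2 higher and 2 lower of 16. Skil, a SMAD repressor, was higher (17.7 to 26.7 CPM in MD and 8.21 to 13.02 CPM in R42A; log2 fold change 1.14 ± 0.21, adjusted p = 0.00167). Nodal was higher in the sums (log2 fold change 0.802 ± 0.18, adjusted p = 0.00473), with 1.53 in replicate 1 and -0.25 in replicate 2. Ccnd1, the G1 cyclin D1, was lower (4.75 to 25.4 CPM in MD and 32.01 to 37.98 CPM in R42A; log2 fold change -1.32 ± 0.21, adjusted p = 0.000702). Nkd2, a feedback inhibitor of Wnt signalling, was lower as well (3.801 to 16.5 CPM in MD and 29.6 to 40.7 CPM in R42A; log2 fold change -1.89 ± 0.21, adjusted p = 0.000111). Of immediate early genes, which answer growth factors within minutes, 3 were higher (11.1%) and 8 lower (29.6%) of 27 tested, and in replicate 2 alone 4 higher and 5 lower of 23. The bZIP gene Maff was lower (10.3 to 47.01 CPM in MD and 73.5 to 102 CPM in R42A; log2 fold change -1.598 ± 0.17, adjusted p = 8.32e-05). The zinc finger gene Egr2 was lower too (0 to 1.48 CPM in MD and 5.35 to 10.5 CPM in R42A; adjusted p = 0.000405). Ccn2 (CTGF), a matrix signalling protein, was higher (6.65 to 15.7 CPM in MD and 1.76 to 3.57 CPM in R42A; log2 fold change 2.096 ± 0.31, adjusted p = 0.000512). Dusp1 was higher in the sums (log2 fold change 0.59 ± 0.18, adjusted p = 0.0216), with -0.38 in replicate 1 and 1.25 in replicate 2. The Wnt, Nodal and BMP counts were 9 higher and 3 lower of 17 in replicate 1 alone, 2 and 2 without clone A04, and 4 and 2 without clone A10, and the immediate early counts 1 higher and 10 lower of 21 in replicate 1 alone, 1 and 4 without clone A04, and 1 and 7 without clone A10.

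Among lineage markers, the mesoderm gene Tbx6 was lower (7.603, 67.3, 13.3 and 67.3 CPM in MD, against 136, 139, 117 and 139 CPM in R42A; log2 fold change -1.73 ± 0.17, adjusted p = 6.59e-05), most in replicate 1. Lhx1 (chromosome 11) was higher (log2 fold change 1.31 ± 0.29, adjusted p = 0.00514), as was Wnt3 (chromosome 11, log2 fold change 1.15 ± 0.31, adjusted p = 0.0139). The endoderm factor Gata6 was higher (3.81 to 14.7 CPM in MD and 0.954 to 3.21 CPM in R42A; log2 fold change 2.34 ± 0.47, adjusted p = 0.00404), as was Dab2 (log2 fold change 1.61 ± 0.37, adjusted p = 0.00613). Gata4 was lower (0 to 6.35 CPM in MD and 6.68 to 7.85 CPM in R42A; log2 fold change -1.71 ± 0.42, adjusted p = 0.00848). Of endoderm markers 3 were higher and 1 lower of 7 tested, and of mesoderm markers 2 were higher and 1 lower of 5 tested. In replicate 2 alone endoderm markers gave 0 higher and 0 lower of 5 (median -0.09), and mesoderm markers 0 higher and 1 lower of 5. In replicate 1 alone endoderm markers gave 5 higher and 1 lower of 7 (median 1.29), and mesoderm markers 3 higher and 1 lower of 5. Of neural markers 1 was higher and 0 lower of 3 tested, with Map2 the higher one, and in replicate 2 alone 0 and 0 of 2. Of trophoblast markers 0 were higher and 1 lower of 6 tested, the lower one being Tfap2a, of fibroblast markers 0 were higher and 0 lower of 5 tested, and of two-cell-like markers 0 were higher and 0 lower of 1 tested.

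Of G1/S and DNA replication genes 2 were higher (5.41%) and 10 lower (27%) of 37 tested (median -0.49), and in replicate 2 alone 2 higher and 4 lower of 35 (median -0.004). Besides Ccnd1 the lower ones included E2f2 (8.86 to 19.1 CPM in MD and 25.8 to 33.4 CPM in R42A; log2 fold change -1.12 ± 0.201, adjusted p = 0.00157), a factor that drives S phase genes. Cdk6, a G1 kinase that binds D cyclins, stood at 269.9, 115, 173 and 128 CPM in MD, against 41.5, 23.3, 45.8 and 17.1 CPM in R42A (log2 fold change 2.41 ± 0.18, adjusted p = 3.10e-05). The MD libraries were all above the R42A libraries, and the R42A replicate 1 libraries were above those of replicate 2. E2f1 was higher (19.1 to 47.5 CPM in MD and 15.3 to 23.6 CPM in R42A; log2 fold change 0.94 ± 0.203, adjusted p = 0.00428). The G1/S counts were 3 higher and 18 lower of 34 in replicate 1 alone, 2 and 5 without clone A04, and 1 and 7 without clone A10.

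Of G2/M genes 7 were higher (20%) and 3 lower (8.57%) of 35 tested, and in replicate 2 alone 5 higher and 2 lower of 30. Ube2c, an enzyme of the anaphase-promoting complex pathway (19.2 to 25.7 CPM in MD and 6.68 to 12.1 CPM in R42A; log2 fold change 1.42 ± 0.21, adjusted p = 0.000569), was higher, and 37.2% of its exonic bases lie outside other genes. The phosphatase gene Cdc25b was higher as well (15.2 to 25.8 CPM in MD and 6.36 to 10.5 CPM in R42A; log2 fold change 1.397 ± 0.22, adjusted p = 0.000791). The spindle genes Nusap1 (log2 fold change -1.05 ± 0.21, adjusted p = 0.00338) and Prc1 (log2 fold change -0.905 ± 0.199, adjusted p = 0.00472) were lower, with 0% of the exonic bases of Prc1 outside other genes. The counts were 5 higher and 5 lower of 28 in replicate 1 alone, 2 and 2 without clone A04, and 3 and 1 without clone A10.

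Replication-dependent histone genes, which are transcribed in S phase, turned with the replicate number. Of 49 tested, 3 were higher and 6 lower in the sums. In replicate 2 alone 13 were higher and 0 lower of 39, and in replicate 1 alone 0 were higher and 27 lower of 30. Summed over the list the level was 164, 963, 169.8 and 972 CPM in MD, against 755, 603, 597 and 559 CPM in R42A. The MD replicate 1 libraries were the lowest and the MD replicate 2 libraries the highest of the 8. The linker histone gene H1f1 stood at 0, 45.2, 1.48 and 63.5 CPM in MD, against 54.5, 42.2, 42.9 and 38.9 CPM in R42A, and H1f5 at 2.85, 23.04, 2.95 and 34.3 CPM in MD, against 33.8, 22.4, 27.99 and 19.99 CPM in R42A. H2bc15 stood at 5.702, 38.7, 7.38 and 29.2 CPM in MD, against 16.9, 10.8, 11.5 and 11.1 CPM in R42A and H2bu2 at 0.9504, 22.1, 1.48 and 17.8 CPM in MD, against 4.57, 5.98, 3.499 and 5.71 CPM in R42A. The same order held for H2bc15 and H2bu2. For H1f1 and H1f5 the MD replicate 1 libraries were lowest and those of MD replicate 2 overlapped with R42A. H2ac21 (log2 fold change -1.72 ± 0.299, adjusted p = 0.00131) and H2ac20 (log2 fold change -1.65 ± 0.33, adjusted p = 0.00299) were lower in the sums. H3c13 was higher there (log2 fold change 0.76 ± 0.27, adjusted p = 0.0456), with -1.07 in replicate 1 and 1.64 in replicate 2. The histone counts were 1 higher and 2 lower without clone A04 and 0 and 2 without clone A10.

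Target genes of the tumour suppressor p53 also differed between the replicate numbers. Of 24 tested 1 was higher and 5 lower, in replicate 2 alone 1 and 0, and in replicate 1 alone 2 and 13. Gdf15, a stress cytokine on chromosome 8, stood at 1.901, 16.6, 1.48 and 13.97 CPM in MD, against 27.4, 18.2, 21.9 and 22.8 CPM in R42A (log2 fold change -1.34 ± 0.22, adjusted p = 0.000949). The antiproliferative gene Btg2 stood at 0, 3.69, 1.48 and 7.62 CPM in MD, against 8.44, 8.97, 10.8 and 4.997 CPM in R42A (log2 fold change -1.45 ± 0.39, adjusted p = 0.0136), and without clone MD09 and replicate 1 its log2 fold change was 0.14. Mdm2, the ligase of p53, was higher in the sums (log2 fold change 0.47 ± 0.16, adjusted p = 0.0384), with 0.78 in replicate 1 and 0.13 in replicate 2, and -0.016 without the MD replicate 1 libraries. The difference between replicate numbers was tested gene by gene in the interaction above. The MD over R42A fold change was lower in replicate 1 for 14 of 23 p53 targets and 36 of 43 histone genes. Over all features it was lower for 3731 of 17442. The p53 target counts were 0 higher and 2 lower without clone A04 and 0 and 4 without clone A10.

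**Figure D5:**
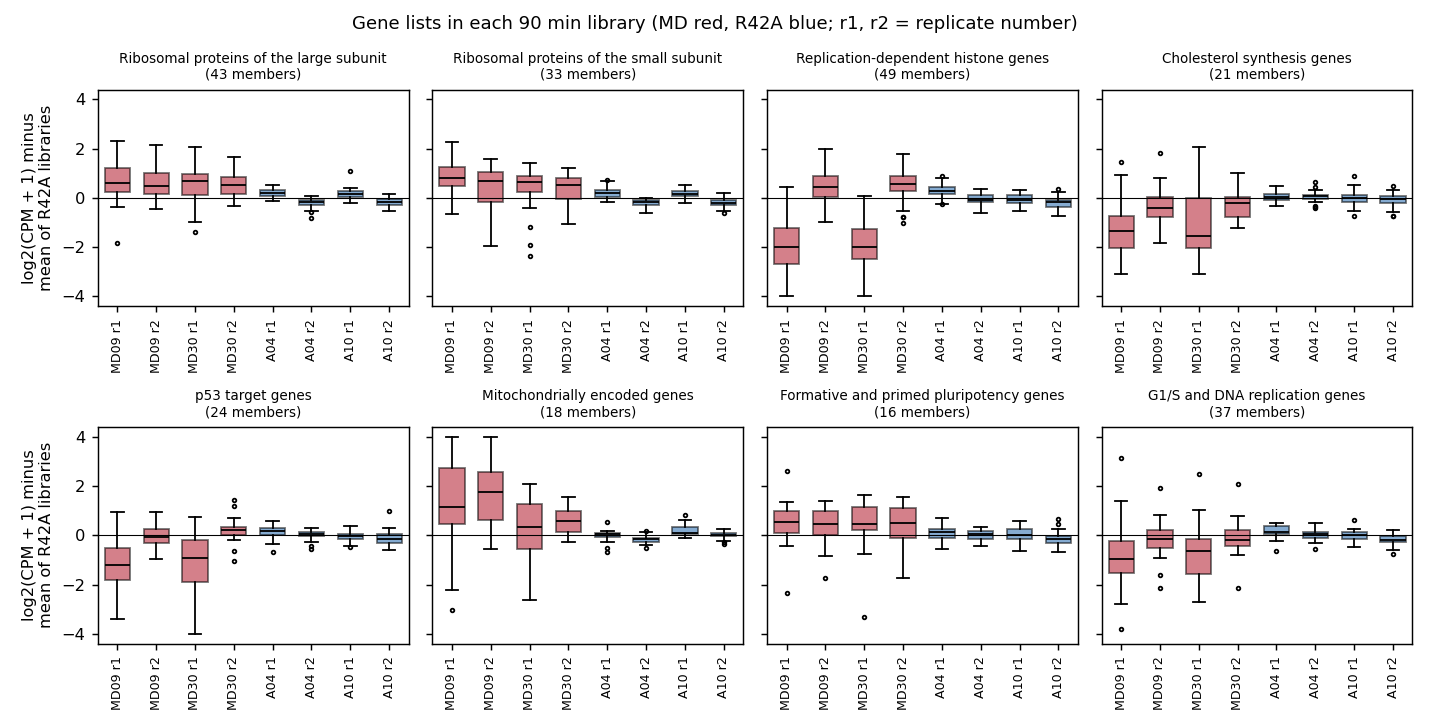
For 8 gene lists, log2(CPM + 1) of each tested member in each 90 min library minus its mean over the R42A libraries, as box plots with MD in red left of R42A in blue (box, quartiles; line, median; values beyond 4 drawn at 4). The medians of ribosomal protein genes and formative genes lie above 0 in all 4 MD libraries, while members such as Rps15a and Foxd3 lie below 0 there. Medians of histone, p53, cholesterol and G1/S genes are lowest in the MD replicate 1 libraries, and those of mitochondrial features are highest in the MD09 libraries.

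Of cholesterol synthesis genes 1 was higher (4.76%) and 9 lower (42.9%) of 21 tested, against 19.7 and 21.6% of all features (median -0.796), and in replicate 2 alone 2 higher and 3 lower of 13 (median -0.01). Fdft1, the squalene synthase, stood at 30.4, 45.2, 25.1 and 45.7 CPM in MD, against 96.7, 98.4, 82.7 and 96.4 CPM in R42A (log2 fold change -1.33 ± 0.16, adjusted p = 0.000152). Sqle, the squalene epoxidase, stood at 11.4, 43.3, 10.3 and 29.2 CPM in MD, against 65.8, 73.6, 69.97 and 67.8 CPM in R42A (log2 fold change -1.51 ± 0.18, adjusted p = 0.000146). For both no MD library reached the lowest R42A library, and replicate 1 was the lower number in MD. Mvk, the mevalonate kinase, was the one higher member (2.54 to 20.7 CPM in MD and 2.14 to 7.18 CPM in R42A; log2 fold change 1.01 ± 0.31, adjusted p = 0.0226). Against the R42A mean its log2(CPM + 1) was 1.47 and 2.07 in the MD replicate 1 libraries but -0.14 and -0.55 in those of replicate 2, and without the MD replicate 1 libraries its log2 fold change was -0.55. The counts were 2 higher and 9 lower of 14 in replicate 1 alone, 1 and 6 without clone A04, and 0 and 6 without clone A10.

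Of genes of the amino acid and unfolded protein responses 2 were higher (10%) and 7 lower (35%) of 20 tested, and in replicate 2 alone 0 higher and 2 lower of 16. The chaperone gene Hspa5 (BiP) ranged over 22.1 to 31.8 CPM in MD and 40.7 to 53.4 CPM in R42A (log2 fold change -0.85 ± 0.19, adjusted p = 0.00447). Its regulator Xbp1 was lower in the sums (log2 fold change -0.75 ± 0.17, adjusted p = 0.00548), with -2.32 in replicate 1 and -0.09 in replicate 2. Phgdh, of serine synthesis (log2 fold change 1.100 ± 0.28, adjusted p = 0.00896), and the pseudokinase gene Trib3 (log2 fold change 0.96 ± 0.32, adjusted p = 0.0317) were higher. The response counts were 3 higher and 8 lower of 17 in replicate 1 alone, 1 and 2 without clone A04, and 1 and 1 without clone A10. Of interferon and antigen presentation genes 3 were higher (18.8%) and 3 lower (18.8%) of 16 tested, Rsad2 among the higher ones. The interferon counts were 4 higher and 1 lower of 13 in replicate 2 alone, 3 higher and 4 lower of 11 in replicate 1 alone, 2 and 3 without clone A04, and 3 and 3 without clone A10. Oas1a, an antiviral oligoadenylate synthetase, was higher (12.7 to 33.3 CPM in MD and 3.29 to 5.35 CPM in R42A; log2 fold change 2.28 ± 0.23, adjusted p = 7.40e-05). Irf7, a transcription factor of the interferon response, was lower (19.2 to 59.9 CPM in MD and 84.6 to 106 CPM in R42A; log2 fold change -1.21 ± 0.16, adjusted p = 0.000261). Of actin cytoskeleton and SRF or YAP target genes 6 were higher (22.2%) and 5 lower (18.5%) of 27 tested. The profilin gene Pfn1 on chromosome 11 was higher (log2 fold change 1.23 ± 0.18, adjusted p = 0.000425), as was Ccn2. Tagln (log2 fold change -0.91 ± 0.15, adjusted p = 0.00103) and the vinculin gene Vcl (log2 fold change -0.74 ± 0.16, adjusted p = 0.00404) were lower. The actin and target gene counts were 2 higher and 5 lower of 24 in replicate 1 alone, 4 and 1 without clone A04, and 3 and 3 without clone A10.

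Among genes of chromatin, SWI/SNF subunits gave 7 higher and 7 lower of 30, and in replicate 2 alone 7 and 3. Arid1b, a subunit of the canonical BAF form, stood at 148, 90.3, 87.1 and 82.6 CPM in MD, against 45.4, 54.4, 52.8 and 47.8 CPM in R42A (log2 fold change 1.02 ± 0.18, adjusted p = 0.00136). Bcl11a (chromosome 11) was higher (15.2 to 31.3 CPM in MD and 6.78 to 11.5 CPM in R42A; log2 fold change 1.36 ± 0.198, adjusted p = 0.000453). The subunit gene Smarcd3 was lower (5.702 to 16.5 CPM in MD and 31.1 to 43.6 CPM in R42A; log2 fold change -1.61 ± 0.201, adjusted p = 0.000205). The actin-related subunit gene Actl6a was lower too (12.4 to 30.4 CPM in MD and 41.9 to 48.98 CPM in R42A; log2 fold change -1.02 ± 0.17, adjusted p = 0.000996). The counts were 5 higher and 9 lower of 29 in replicate 1 alone, 3 and 3 without clone A04, and 4 and 4 without clone A10.

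Of Polycomb genes 7 were higher (25%) and 6 lower (21.4%) of 28 tested, and in replicate 2 alone 10 higher and 1 lower of 26. Pcgf2, of repressive complex 1 and on chromosome 11, was higher (85.5 to 98.95 CPM in MD and 43.9 to 46.4 CPM in R42A; log2 fold change 0.99 ± 0.15, adjusted p = 0.000516). Suz12, of repressive complex 2 and on the same chromosome, was higher too (41.4 to 65.6 CPM in MD and 21.8 to 33.4 CPM in R42A; log2 fold change 0.98 ± 0.18, adjusted p = 0.00183). Ezh2, the methyltransferase of complex 2, stood at 10.5, 20.3, 8.86 and 24.1 CPM in MD, against 45.03, 44.9, 45.2 and 39.98 CPM in R42A (log2 fold change -1.44 ± 0.18, adjusted p = 0.000196), and Phc1 was lower as well (log2 fold change -0.63 ± 0.17, adjusted p = 0.0119). Without chromosomes 8 and 11, 4 were higher and 5 lower. The Polycomb counts were 7 higher and 7 lower of 27 in replicate 1 alone, 5 and 1 without clone A04, and 4 and 2 without clone A10. Of imprinted genes 8 were higher (33.3%) and 2 lower (8.33%) of 24 tested, and in replicate 2 alone 6 higher and 0 lower of 19. The imprinted counts were 8 higher and 2 lower of 20 in replicate 1 alone, 3 and 0 without clone A04, and 6 and 0 without clone A10. Sgce, a sarcoglycan gene, stood at 48.5, 19.4, 44.3 and 25.4 CPM in MD, against 4.22, 11.4, 9.86 and 5.35 CPM in R42A (log2 fold change 2.09 ± 0.19, adjusted p = 4.99e-05). The deubiquitinase gene Usp29 ranged over 53.5 to 103 CPM in MD and 22.9 to 35.3 CPM in R42A (log2 fold change 1.45 ± 0.16, adjusted p = 0.000127). The lower members were Ube3a (log2 fold change -0.65 ± 0.203, adjusted p = 0.0257) and the long noncoding RNA Kcnq1ot1 (log2 fold change -0.46 ± 0.15, adjusted p = 0.0334), 0% of whose exonic bases lie outside another gene.

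Of RNA polymerase II and elongation genes 10 were higher (21.3%) and 14 lower (29.8%) of 47 tested, against 19.7 and 21.6% of all features, and in replicate 2 alone 12 higher and 5 lower of 44. The Mediator gene Med24 on chromosome 11 was higher (15.2 to 34.2 CPM in MD and 6.78 to 9.86 CPM in R42A; log2 fold change 1.56 ± 0.23, adjusted p = 0.00048). Aff4, a scaffold of the super elongation complex on the same chromosome, was higher as well (63.7 to 85.7 CPM in MD and 31.8 to 49.04 CPM in R42A; log2 fold change 0.87 ± 0.16, adjusted p = 0.00195). Nelfa, a subunit of the negative elongation factor, stood at 22.8, 47.9, 22.2 and 45.7 CPM in MD, against 92.9, 83.7, 93.2 and 91.03 CPM in R42A (log2 fold change -1.35 ± 0.15, adjusted p = 0.000131). The polymerase subunit gene Polr2j was lower in the sums (log2 fold change -1.06 ± 0.15, adjusted p = 0.000469), with -2.81 in replicate 1 and -0.37 in replicate 2. Without chromosomes 8 and 11 5 of the list were higher and 11 lower. The polymerase and elongation counts were 3 higher and 16 lower of 43 in replicate 1 alone, 3 and 6 without clone A04, and 1 and 9 without clone A10, and with DESeq2 2 and 4. Of spliceosome genes 3 were higher (7.14%) and 3 lower (7.14%) of 42 tested, and in replicate 2 alone 9 higher and 1 lower of 40. Hnrnpm (log2 fold change 0.71 ± 0.15, adjusted p = 0.00412) was higher and U2af1, which reads the end of introns (log2 fold change -1.41 ± 0.29, adjusted p = 0.00337), and Tra2a (log2 fold change -0.89 ± 0.22, adjusted p = 0.00856) were lower. The spliceosome counts were 2 higher and 15 lower of 39 in replicate 1 alone, 0 and 1 without clone A04, and 0 and 2 without clone A10. Srsf5 was higher in the sums, with 1.32 in replicate 1 and 0.04 in replicate 2, and -0.12 without the MD replicate 1 libraries. Of nuclear noncoding RNAs 5 were higher (27.8%) and 4 lower (22.2%) of 18 tested. Their counts were 3 higher and 6 lower of 16 in replicate 1 alone, 1 and 0 without clone A04, and 1 and 1 without clone A10. Meg3, an imprinted noncoding RNA, was higher (39.6 to 76.8 CPM in MD and 24.6 to 41.7 CPM in R42A; log2 fold change 0.82 ± 0.16, adjusted p = 0.00302), as was Lncenc1 (log2 fold change 0.87 ± 0.21, adjusted p = 0.0081). Neat1, which builds paraspeckles, was lower (13.97 to 18.4 CPM in MD and 21.4 to 34.99 CPM in R42A; log2 fold change -0.896 ± 0.19, adjusted p = 0.0039). Tsix, the antisense partner of Xist, was lower too (log2 fold change -0.63 ± 0.205, adjusted p = 0.0292), with 28.02% of its exonic bases outside other genes.

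Gene length went with the direction of change. Protein-coding genes spanning under 10 kb were higher in 11.8% and lower in 31.6% of 2799 genes, with a median log2 fold change of -0.31. From 10 to 20 kb the median was -0.17, from 20 to 40 kb -0.06, and from 40 to 80 kb 0.07. Genes over 80 kb were higher in 31.3% and lower in 11.1% of 2932, with a median of 0.31. In replicate 2 alone the medians of the shortest and the longest class were -0.07 and 0.23, and in replicate 1 alone -0.73 and 0.35. In the fit of all 24 sums, which scales the libraries otherwise, the same 2 classes had medians of -0.17 and 0.18 at 45 min. In that fit they were -0.43 and 0.19 at 90 min, against -0.13 over all features, and -0.02 and -0.03 at 180 min. The ribosomal protein genes, with a median span of 3329 bases, belong to the short genes and had a median of 0.64.

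Features that lie within an antisense gene were lower in 27.9% of 2927 cases, with a median of -0.145. The other 16720 were lower in 20.5%, with a median of 0.01. In replicate 2 alone the medians were -0.38 and 0.07, whereas in replicate 1 alone the order turned, with 0.02 and -0.099.

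To place the 90 min libraries along the restart, features were taken that changed by more than 1 log2 unit from 45 to 180 min in R42A cells, in a fit without any 90 min library. Of these 4572 rose and 3441 fell. Relative to the mean of the R42A libraries at 45 min, the rising features had median log2 values of 0.66 and 0.53 in MD09, 0.70 and 0.65 in MD30, 0.71 and 0.81 in A04, and 0.75 and 0.82 in A10 (replicates 1 and 2 of each). The falling features had medians of -1.44 and -1.21 in MD09, -1.41 and -1.14 in MD30, -0.93 and -0.88 in A04, and -0.93 and -0.92 in A10. All MD libraries were thus below all R42A libraries on both measures. For the rising features the gap was narrow, with 0.705 in MD30 replicate 1 against 0.714 in A04 replicate 1. For comparison the medians at 180 min were 1.503 to 1.55 in MD and 1.47 to 1.69 in R42A for the rising features, and -1.33 to -1.24 in MD and -1.39 to -1.27 in R42A for the falling ones. These values depend on the scaling of the libraries. Over all features the median genotype difference at 90 min was -0.13 in the fit of 24 sums. The part of that shift in these values was not tested. In the clone sums the rising and falling features tested had median log2 fold changes of -0.17 and -0.21, against -0.01 over all features.

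The genotype difference at 90 min was then compared with that at the neighbouring times, with clone as a term of the fit. Against 45 min, 4654 of 23874 features changed in their genotype difference (19.5%), 1523 upward and 3131 downward, and against 180 min 4772 (20%), 1838 upward and 2934 downward. With DESeq2's size factors, which moved the median difference against 45 min from -0.20 to -0.01, the counts were 2271 upward and 2078 downward against 45 min, and 2235 and 2316 against 180 min. In replicate 2 alone 982 and 1081 features changed against 45 min and 687 and 897 against 180 min.

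The named features were followed in the same way. The genotype difference of Rsad2 exceeded that at 180 min by 2.51 ± 0.603 log2 units (adjusted p = 0.00276) and that at 45 min by 3.696 ± 0.68 (adjusted p = 0.000145). For Pip the difference from 180 min was -3.32 ± 0.47 (adjusted p = 5.86e-06), and for Cdk6 it was 1.91 ± 0.23 (adjusted p = 3.00e-07). Esrrb differed from 180 min by -0.73 ± 0.23 (adjusted p = 0.0188) and Rpl27a by 1.404 ± 0.24 (adjusted p = 6.34e-05). In replicate 2 alone these 5 differences from 180 min were 3.04, -3.31, 2.15, -0.99 and 1.94 for Rsad2, Pip, Cdk6, Esrrb and Rpl27a. The adjusted p of that fit were 0.0181, 0.0157, 3.86e-05, 0.0218 and 0.00021 in the same order. All 5 genes were chosen by their values at the time studied here, with the replicate 2 libraries included. The choice thus favours a larger difference there than at 45 or 180 min, and the replicate 2 values are no independent check.

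Hydin and Mras were called in all conditions in the fit of all 24 sums. The log2 fold change of MD over R42A for Hydin was 2.16 in asynchronous cells and 2.08, 1.71, 1.88, 1.75 and 1.704 in time order from 0 to 240 min. For Mras it was -2.46 in asynchronous cells and -2.17, -2.97, -4.57, -2.95 and -2.33 at the same times. The difference at 90 min minus that at 180 min was 0.11 ± 0.23 for Hydin (adjusted p = 0.788) and -1.66 ± 0.43 for Mras (adjusted p = 0.00551). Both genes were likewise chosen by their values at 90 min.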

How the data were processed

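The values were whole-number counts per gene symbol in 1 table per library, as deposited by the authors and not normalized. Each table held 55291 symbols and the counter's own 5 summary entries, which entered neither totals nor tests. Reads in no feature were 92.1 to 94.0% of a 90 min table and ambiguous reads 0.162 to 0.190%, or 0.129 and 0.130% in MD replicate 1. The submitters' processing notes list Trim Galore 0.60, STAR 2.7.1a, RSEM 1.3.0 and mm10, with no role or order, and the sources used here do not give the counting strand. No rounding was needed, as all values were whole. Coordinates are mm10 from GENCODE M21, which named 53180 of the symbols.

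Libraries of a clone were summed, since the clone was the replicate. Features passing filterByExpr (minimum count 10, total 15) were tested with edgeR 4.0.16 (R 4.3.3), using TMM scaling, the robust quasi-likelihood test and Benjamini-Hochberg adjustment at 0.05. Errors are standard errors. CPM values are TMM-scaled and single libraries are plotted. limma 3.58.1 and DESeq2 1.42.0 served as alternatives. Scripts were tested on simulated data. Precision rests on depth, which is given per library group, and counting intervals at 95% cover counting error only.

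Named features were called in the sums and, the same way, in replicate 2 alone, averaged at least 5 CPM, had all MD libraries on one side of all R42A libraries, had 80% of exonic bases outside other genes and no provisional name. The 8 with the largest fold and the 6 with the highest level in each direction were taken, then the 2 list members per direction with the smallest adjusted p (4 for 8 of the lists). A few list members picked this way are not reported here. The 35 gene lists, of 1032 genes (971 found by symbol, 57 through RefSeq synonyms, 4 not found), and the comparison itself were chosen with earlier results of these data known.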

Additional observations from a re-analysis of the deposited data

Results flagged for a closer look

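In 308 groups of 4 libraries of the named features 15 held a library far from the others, where chance gives about 1 in 20. In MD these were Aknad1 (41.8 CPM) and Arid1b (148 CPM) in MD09 replicate 1, Rps26 (85.7 CPM) and Fau (42.4 CPM) in MD09 replicate 2, and Acadl (5.91 CPM) and Kcnq1ot1 (41.4 CPM) in MD30 replicate 1. In R42A they were E2f1 (23.6 CPM) and H2bc15 (16.9 CPM) in A04 replicate 1, Rsad2 (0.897 CPM) in A04 replicate 2, Fdft1 (82.7 CPM), Actl6a (49.0 CPM), Polr2j (65.2 CPM) and Tbx6 (117 CPM) in A10 replicate 1, and Hsf1 (26.1 CPM) and Ezh2 (39.98 CPM) in A10 replicate 2.

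The genotype difference differed between replicate numbers at 6773 features by a test of the difference itself. Among the features named by size or level it was larger in replicate 1 by over 2 log2 units for Bpifb4 (3.56) and Cd22 (2.31), and for Acadl the value was 5.25, with both replicate 2 libraries of MD at 0.

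Between times the genotype difference differed at 4772 features for 90 against 180 min and at 4654 for 90 against 45 min. By over 2 log2 units against 180 min these included, upward, Vmn2r32 (4.38), Skint7 (3.33), Rsad2 (2.51), Bpifb4 (2.44), Nsg2 (2.39) and Smim1 (2.11), and downward Phf2os1 (-8.63), Wdsub1 (-3.92), Pip (-3.32), Trcg1 (-3.18), Mboat4 (-2.77), Tmed6 (-2.74) and Acadl (-2.43). Against 45 min they were, upward, Rsad2 (3.70), Vmn2r32 (2.73), Aknad1 (2.53), Skint7 (2.46), Smim1 (2.42) and Rasgrf1 (2.23), and downward Phf2os1 (-8.49), Wdsub1 (-5.03), Pip (-4.11), Acadl (-4.09), Trcg1 (-3.18), Mboat4 (-3.09) and Tmed6 (-2.502). Fitted values of Phf2os1 depend on the small count added in the fit, since MD held 0 counts at 90 min. All these features were chosen by their 90 min values, so a larger difference at that time is favoured by the choice.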

How the results depend on the processing

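The count of called features stood at 8121 and was within 1.5 times of that with 24 sums of all conditions, with either replicate number alone, without the MD replicate 1 libraries, with limma-voom, with DESeq2's size factors, without a filter, without CT010467.2 and the mitochondrial features, and, added after seeing the data, without chromosomes 8 and 11. Over the alternatives that left out one replicate number, clone or library it ran from 3295 to 9508. With limma-voom it was 7781, at an estimated correlation within clones of -0.44, and a value below 0 narrows the standard errors of the genotype difference. The count was 4672 with 8 libraries fitted singly and 5282 with the replicate block. It was 4003 with DESeq2, 4769 after thinning and 5203 for features over 80% outside other genes. Of those added after seeing the data, it was 3748 without MD09 and replicate 1, and 0 with replicate numbers as the replicate. Over the listed genes the count was 321, from 139 to 373 over those left out, 128 with DESeq2, 211 with the replicate block and 0 with replicate numbers as the replicate. Against 45 min it was 2063, and against 180 min 1584, without replicate 1.

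The sample labels give only a replicate number and do not say what it marks. Deviations between replicate 1 and 2 correlated at 0.805 between the MD clones, at 0.27 between the R42A clones and at -0.06 to 0.005 across genotypes. MD libraries with the same number thus shared variation across clones, and its source was not tested.

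Of 4206 values of 154 named features under the alternatives, 15 turned their direction, 718 lost their call and 9 gained one, 151 of the lost calls with replicate numbers as the replicate. With replicate 1 alone and replicate 2 alone the log2 fold changes were -0.66 and 1.68 for Psmd11, -0.38 and 1.25 for Dusp1, -1.097 and 1.67 for H2bc15, -1.07 and 1.64 for H3c13, -6.21 and 0.42 for H1f1, and -3.35 and 0.41 for H1f5. Without the MD replicate 1 libraries those that turned were Mvk (-0.55), H1f1 (0.26), H1f5 (0.10), Mdm2 (-0.016) and Srsf5 (-0.12), and without MD09 and replicate 1 Mvk (-0.88), H1f1 (0.69), H1f5 (0.73) and Btg2 (0.14). With replicate 1 alone Mvk stood at 1.87 and Btg2 at -3.89. Whether the replicate number or another property of those libraries set these turns was not tested. The MD30 libraries, at 630119 and 635760 counts, limit all low features: 3 counts there equal 4.76 and 4.72 CPM before scaling.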
